A study of Mus musculus with 8 samples.

Results

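Interleukins are secreted proteins with which leukocytes direct each other, and each acts only on cells that carry its receptor. IL-1 family members and TNF reach NF-kB through adaptor proteins such as MyD88 and TRAF2, whereas most other interleukins act through receptor-bound JAK kinases and STAT transcription factors. In tumour-infiltrating granulocytic cells, IL-1 beta and TNF are known as products of activated cells, and receptors such as those of IL-6 and IL-17 let them respond to the tissue. Described here are 75 genes of this kind out of the 18194 genes with a single-gene probe set on the array. They were chosen by symbol, as Il followed by a number, together with Tnf, Lif, Osm and both TNF receptors, Tnfrsf1a and Tnfrsf1b, a rule that refers to names only.

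The cells were granulocytic myeloid-derived suppressor cells (Gr-MDSCs), immature neutrophil-like cells that restrain T cells, sorted from prostate tumours of CPPSML mice. All mice carried PB-Cre+ with the floxed tumour suppressors PtenL/L, p53L/L and Smad4L/L, and the reporters mTmGL/+ and, for luciferase, LSL-LucL/+. They were 12 to 16 weeks old and had been castrated once the tumour measured 150 mm3, then fed enzalutamide for 4 weeks. The probasin promoter directs Cre to prostate epithelium, and Gr-MDSCs are host cells. Freshly isolated cells received 0.1 µM Dactolisib, a dual inhibitor of PI3K and mTOR (n = 2), 0.1 µM Dasatinib, an inhibitor of Src, Abl and other tyrosine kinases (n = 2), or the solvent DMSO (n = 4) for 6 h, and each sample was hybridised to 1 Affymetrix mouse array. No source states that replicates came from separate mice or cultures, so the spread behind each p-value may be technical and is that of these samples only, and the small number of arrays limits the precision. The comparisons ask which interleukin transcripts Gr-MDSCs carried and whether either inhibitor changed them.

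By their correlations the 8 arrays formed 3 sets, each with drug and DMSO samples. Set A held Dactolisib 1, DMSO 2 and DMSO 4, set B held Dactolisib 2, Dasatinib 2 and DMSO 3, and set C held Dasatinib 1 and DMSO 5. The lowest Pearson correlation within a set was 0.987 and the highest between sets was 0.980, across probe sets, which are not independent replicates, and the sets were the same without the probe sets of the 75 genes. Granulocyte markers were above background on every array for 20 of 21 genes measured. Epithelial markers had a summed linear signal that was lowest in set B (2408 to 3061), higher in set A (14338 to 16061) and highest in set C (54156 to 57784). What the sets stand for is not given in the sources used here. Each comparison is therefore given both without the sets and within them. Because the sets were found from these same arrays, the spread within them may be understated. The p-values within sets may therefore be too low.

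A gene was taken as expressed on an array where its log2 signal exceeded the 95th percentile of 80 probe sets of olfactory and vomeronasal receptors, which lay between 4.79 and 5.18. By this measure 39 of the 75 genes were expressed on all 8 arrays, 12 on some and 24 on none. The stricter 99th percentile gave 28, 13 and 34 genes. Of the ligands, 18 of 36 were expressed on all arrays, and of the receptors and binding proteins 20 of 37. Signals of different probe sets cannot be set against each other as amounts of RNA, so each gene is compared only with itself across arrays.

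Of the IL-1 family, 16 of 20 genes were above background on all 8 arrays. Il1b encodes IL-1 beta, a central inflammatory cytokine that needs cleavage before release. Its log2 signal was 13.07 and 13.28 with Dactolisib, 13.01 and 13.47 with Dasatinib and 13.36, 13.49, 13.33 and 12.92 with DMSO. Il1rn encodes the receptor antagonist that competes with IL-1, and it had 12.90 and 13.14 with Dactolisib, 13.24 and 13.25 with Dasatinib and 12.96, 13.21, 12.94 and 12.71 with DMSO. Both transcripts were thus far above background in every sample, the agonist and its antagonist alike. Il1f9, which encodes IL-36 gamma, an epithelial and myeloid alarmin, lay between 12.11 and 12.73. Il1a, the other IL-1 agonist, lay between 9.82 and 11.27, with the 3 arrays of set B at 11.08 or above and the other 5 at 10.19 or below.

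Among the remaining IL-1 family ligands, Il18, a partner of IL-12 in the induction of interferon gamma, lay between 6.83 and 7.57, and Il1f6 (IL-36 alpha) between 6.68 and 8.21. Il1f5, Il1f8 and Il1f10 stayed between 5.03 and 6.47, close to the background. Il1bos, an RNA from the opposite strand at the Il1b locus, lay between 7.07 and 8.95. On the receptor side, Il1r2, a decoy receptor that binds IL-1 without signalling, lay between 11.00 and 11.89. Il1r1, the signalling receptor, lay between 5.35 and 5.79, close to the background, and exceeded the 99th percentile on 4 of 8 arrays. Its other probe set lay between 1.90 and 2.30. Il1rap, the shared accessory chain, lay between 9.06 and 10.32. Both chains of the IL-18 receptor were expressed, Il18r1 between 6.87 and 7.29 and Il18rap between 7.61 and 9.05, as was the soluble inhibitor Il18bp between 6.67 and 8.01. Il1rapl1 and Il1rapl2, known from neurons, were at background on every array.

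Tnf, which encodes the cytokine that is made by activated myeloid cells, had a log2 signal of 11.69 and 11.94 with Dactolisib, 11.83 and 12.05 with Dasatinib and 11.71, 12.04, 11.62 and 11.37 with DMSO. The groups overlapped. Tnfrsf1b, the TNF receptor found mainly on leukocytes, lay between 11.31 and 12.43, and the widely expressed Tnfrsf1a between 9.55 and 10.42. Cytokine and both receptors were therefore expressed in the same samples.

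In the IL-6 family, Osm, a cytokine of activated neutrophils and macrophages, lay between 7.91 and 9.26. Il6ra, the ligand-binding chain of the IL-6 receptor, lay between 8.05 and 9.63. Il6st encodes gp130, the chain through which IL-6, LIF and oncostatin M signal, and it was above background on 6 of 8 arrays. Il31ra stayed near background at 4.85 to 5.85. Il6 itself was above background on 4 of 8 arrays, and its values, together with those of Lif and Il6st, followed the array sets, as described further on.

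For the cytokines that share the common gamma chain, 5 of 12 genes were expressed on all arrays. Il15, a growth and survival factor for NK cells and memory CD8 T cells, was one, and its presenting receptor Il15ra (5.92 to 7.21) was another. Il7r, the IL-7 receptor known from lymphocytes, lay between 6.40 and 7.12. Il21r lay between 5.08 and 5.53 and Il9 between 4.86 and 5.40, both close to background. The ligands Il2, Il4, Il7 and Il21 were at background on every array, as was Il2ra, the high-affinity IL-2 receptor chain.

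IL-12 and IL-23 share the subunit p40, encoded by Il12b, which was at background on every array. Their specific subunits were above it: Il23a (p19) lay between 8.27 and 10.26, and Il12a (p35) was above background on 7 of 8 arrays. For IL-17, the cytokine genes Il17a, Il17d and Il25 were at background on all arrays, while the receptor chain Il17ra lay between 8.71 and 10.06. Il17re, a receptor chain for IL-17C, lay between 7.52 and 7.76, and Il17rc between 5.51 and 6.07.

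Of the class II cytokine receptors, Il10rb, a shared chain, lay between 11.56 and 12.47 and Il10ra between 7.36 and 8.64. Il13ra1, a receptor chain that binds IL-13, lay between 8.34 and 9.09, and Il16, a T cell chemoattractant made as a precursor in many leukocytes, between 8.43 and 10.14. Il13, Il17b, Il20 and Il20rb were called expressed at signals of at most 5.90, close to the threshold. The ligands Il3, Il4 and Il5 were at background on all 8 arrays. In bulk RNA, fewer cells of a type and less RNA per cell cannot be told apart, and this applies to every level above.

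**Figure D1:**
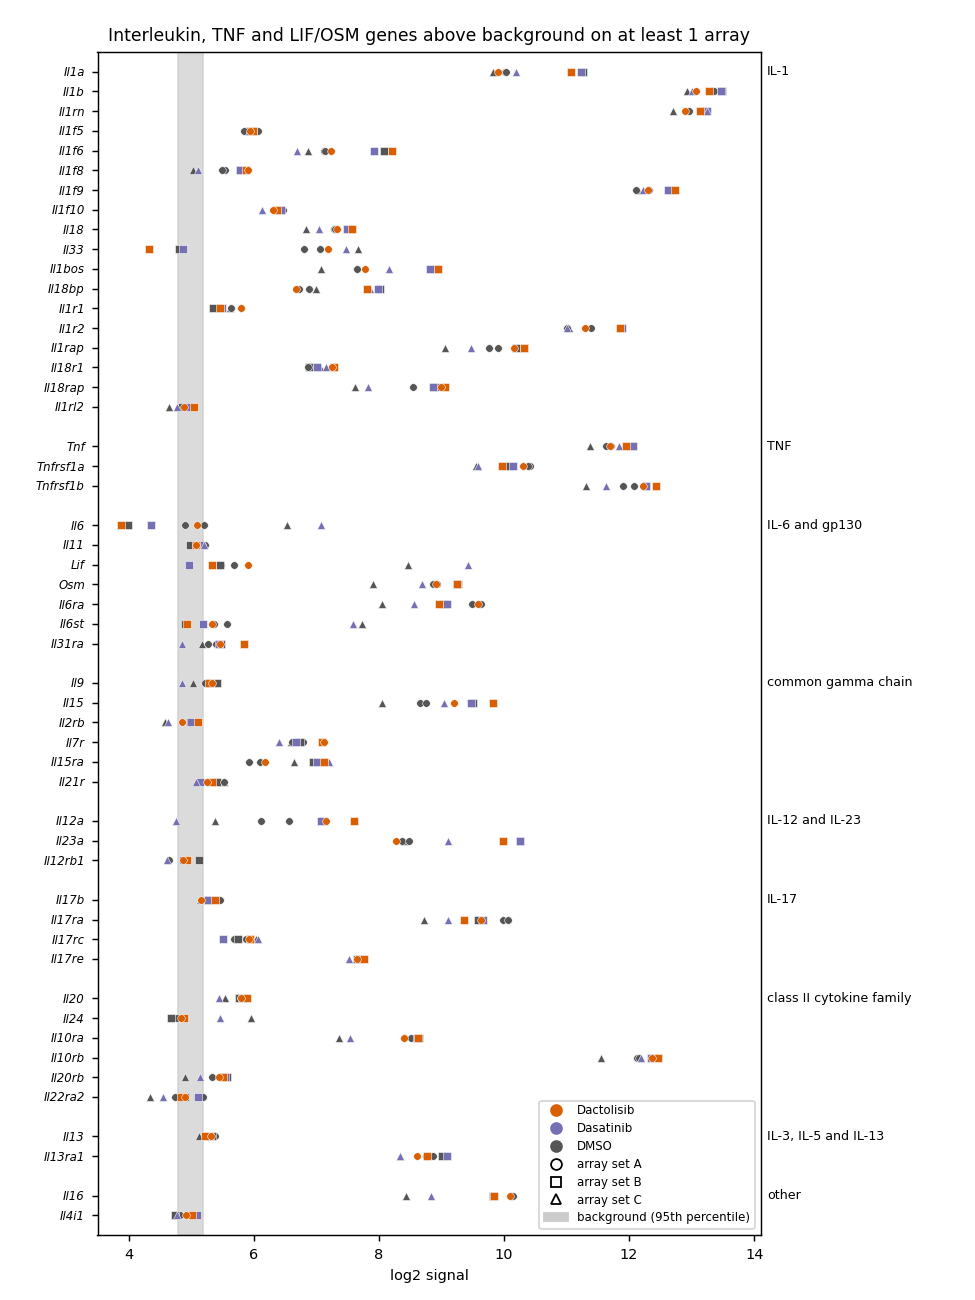
Log2 signal (x axis) of the 51 genes above background on at least 1 array, by family, with 1 point per array coloured by treatment and shaped by array set. The grey band spans the background of 4.79 to 5.18. Points of a gene spread more by array set than by treatment for Lif, Il6, Il6st, Il33 and Il23a.

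For Dactolisib against DMSO without the array sets, 0 of 56 genes tested passed (limma, Benjamini-Hochberg adjusted p under 0.05 over 30025 probe sets), beside 0.0% of all probe sets. At an unadjusted p under 0.05 there were 2 higher genes, Il7r and Il18r1, and 0 lower, beside 6.24% of all probe sets. The unpaired two-group test named in the study's methods also gave 0 adjusted and 2 unadjusted calls among the genes. Il7r was higher on both Dactolisib arrays than on all 4 DMSO arrays, with a difference of 0.42 ± 0.11 (SE) and a limma adjusted p of 0.775. Il18r1 did not overlap either, with a difference of 0.33 ± 0.11 and the same adjusted p. Non-overlap counted 5 genes above DMSO (Il18rap, Il18r1, Il7r, Il12a and Il1f8) beside 11.4% of all probe sets, and 1 below (Il1f10) beside 9.58%.

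Within array sets, 4 of the 56 genes were higher with Dactolisib, beside 2.19% of all probe sets called higher, and 0 were lower, beside 4.2% called lower. They were Il15, Il18r1, Il12a and Il7r. At an unadjusted p under 0.05 there were 8 higher and 5 lower genes, beside 23.5% of all probe sets. The 4 calls did not hold when Dactolisib 1, Dactolisib 2 or DMSO 3 was left out. Each of these fits rested on a single Dactolisib array, and no probe set on the whole array passed in them. Leaving out Dactolisib 2 or DMSO 3 gave the same fit. Lower calls appeared under other settings. With 32 added before log2 there were 4 higher (4.78% of all probe sets) and 3 lower genes (8.27%), Il1b, Il17ra and Il13ra1. With only the 15013 probe sets of highest mean signal, which hold 32 of the genes, there were 4 higher (8.55%) and 2 lower (15.0%), and with a trended and robust prior 7 higher (4.84%) and 2 lower (8.28%), the lower genes being Il1b and Il17ra in both.

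Il15 had a log2 signal of 9.20 and 9.83 with Dactolisib and 8.74, 9.50, 8.66 and 8.05 with DMSO. Each Dactolisib array was above the DMSO arrays of its own set, while the groups as wholes overlapped through DMSO 3. The within-set difference was 0.43 ± 0.08 (SE, limma adjusted p = 0.0310), from 0.50 for Dactolisib 1 and 0.33 for Dactolisib 2. Il15ra was 6.18 and 7.12 with Dactolisib against 5.92, 6.94, 6.10 and 6.64 with DMSO.

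Il12a had 7.15 and 7.61 with Dactolisib and 6.55, 7.12, 6.12 and 5.37 with DMSO. Both Dactolisib arrays lay above all DMSO arrays, narrowly for DMSO 3. The within-set difference was 0.68 ± 0.14 (limma adjusted p = 0.0375), from 0.82 and 0.49. Its partner gene Il12b was below the signal filter and at background on every array.

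Il18r1 had 7.25 and 7.29 with Dactolisib against 6.87, 6.88, 6.94 and 7.06 with DMSO, so the groups did not overlap. The within-set difference was 0.38 ± 0.08 (limma adjusted p = 0.0364), from 0.35 and 0.41. The other receptor chain, Il18rap, reached 9.05 with Dactolisib, and both Dactolisib values were above the DMSO values of 8.94, 8.88, 8.55 and 7.61. Its second probe set overlapped, at 8.65 and 8.83 with Dactolisib against 8.66, 8.79, 8.48 and 7.57 with DMSO. Il18rap was not called in either fit.

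Il7r had 7.12 and 7.09 with Dactolisib against 6.61, 6.74, 6.79 and 6.59 with DMSO, and here too all Dactolisib values were above all DMSO values. The within-set difference was 0.39 ± 0.09 (limma adjusted p = 0.0461), from 0.41 and 0.35. A second Il7r probe set gave 0.25 with an adjusted p of 0.173, and the mean of both probe sets did not pass. Il7r is a T cell gene. Of 13 T and NK cell markers measured, 7 were above background on all 8 arrays (Cd3d, Cd3e, Cd8a, Cd4, Zap70, Ncr1 and Icos), 1 on some and 5 on none (Cd3g, Cd2, Nkg7, Gzma and Prf1). Of the 7, Cd3d, Ncr1 and Icos lay between 4.87 and 5.42, close to background. Cd8a lay between 5.43 and 5.66, Cd3e between 5.62 and 5.95, Cd4 between 6.81 and 7.08 and Zap70 between 7.90 and 8.13. The summed linear signal of the list was 704 to 732 with Dactolisib and 695 to 730 with DMSO. The part of T cell RNA in the Il7r result was not tested.

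The promoters of called genes are shown because the array gives only transcript levels and these are the sequences just upstream, 250 bases before to 50 after the annotated start, from RefSeq on GRCm38.p6. Il7r lies on the minus strand (chr15:9529827-9530126), Il18r1 has 3 annotated starts of which the third is shown (chr1:40465756-40466055, plus strand), and Il12a has 2 of which the first is shown (chr3:68690394-68690693, plus strand). Entries matched 59 of the 75 genes, Il15 not among them. Capitals mark exact matches, on either strand, to TTCNNNGAA (STAT), TTGCNNAA (C/EBP) or GAGGAA (ETS and PU.1). The motifs TGANTCA (AP-1), GTAAACA (FoxO) and the NF-kB consensus were searched too.
Il7r: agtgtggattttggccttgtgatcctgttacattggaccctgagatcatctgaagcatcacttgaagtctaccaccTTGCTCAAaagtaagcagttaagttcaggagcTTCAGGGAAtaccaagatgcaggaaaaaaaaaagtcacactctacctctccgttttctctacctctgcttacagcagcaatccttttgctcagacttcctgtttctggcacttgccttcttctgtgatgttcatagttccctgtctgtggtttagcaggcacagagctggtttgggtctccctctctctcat
Il18r1: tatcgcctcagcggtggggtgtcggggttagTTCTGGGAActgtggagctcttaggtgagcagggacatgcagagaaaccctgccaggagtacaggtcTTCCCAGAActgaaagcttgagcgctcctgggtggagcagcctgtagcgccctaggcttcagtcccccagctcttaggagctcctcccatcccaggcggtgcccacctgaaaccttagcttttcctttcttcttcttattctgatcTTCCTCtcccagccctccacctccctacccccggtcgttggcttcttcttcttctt
Il12a: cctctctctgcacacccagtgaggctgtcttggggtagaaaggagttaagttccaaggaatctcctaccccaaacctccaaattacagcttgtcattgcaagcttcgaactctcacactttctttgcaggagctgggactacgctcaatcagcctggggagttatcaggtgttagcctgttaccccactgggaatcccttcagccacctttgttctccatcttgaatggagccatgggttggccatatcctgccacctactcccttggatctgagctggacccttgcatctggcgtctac

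The STAT letters occurred at -142 from the start of Il7r and at -219 and -152 from the third start of Il18r1, and C/EBP letters at -174 of Il7r. Of 32841 RefSeq promoters of this length, 8.3% hold the STAT motif, 10.8% C/EBP, 28.3% ETS and PU.1, 7.81% AP-1, 3.65% FoxO and 8.46% NF-kB. Neither promoter of Il12a and neither of the first 2 starts of Il18r1 held any of the 6. A match is a description of the letters, not of binding.

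**Figure D2:**
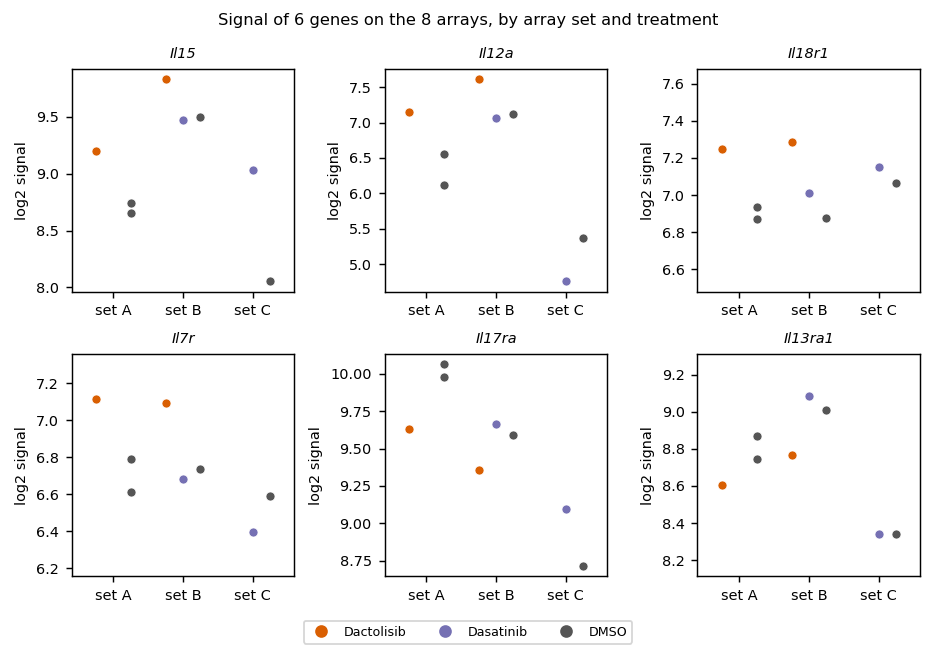
Log2 signal (y axis, own scale per panel) of Il15, Il12a, Il18r1, Il7r, Il17ra and Il13ra1 on each array, 1 point per array, by array set (x axis) and treatment. In sets A and B the Dactolisib point lies above every DMSO point of its set for the first 4 genes and below them for Il17ra and Il13ra1.

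In the other direction, Il17ra had 9.63 and 9.36 with Dactolisib against 10.06, 9.59, 9.98 and 8.71 with DMSO. The within-set difference of -0.32 ± 0.08 missed the threshold (limma adjusted p = 0.0645), and a second probe set gave -0.39 with an adjusted p of 0.0490. Il13ra1 had 8.61 and 8.77 with Dactolisib and 8.87, 9.01, 8.75 and 8.34 with DMSO. Its probe set with the highest mean gave -0.22 (limma adjusted p = 0.160), and 2 further probe sets of its 5 gave -0.36 (0.0494) and -0.43 (0.0276). Another was 8.32 and 8.38 with Dactolisib, against 8.55 and 8.54 on the DMSO arrays of set A and 8.50 in set B. The last, near background, was 4.66 against 5.05 and 4.87 in set A, but 4.95 against 4.81 in set B. By the probe set with the highest mean, each Dactolisib array lay below the DMSO arrays of its own set for both genes. The groups as wholes overlapped. Il1b gave a within-set difference of -0.25 ± 0.08 (limma adjusted p = 0.105), and Tnf one of -0.03 ± 0.08 (0.877). Il1f8 (0.26) and Il31ra (0.23) had adjusted p-values of 0.151 and 0.187.

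The machinery downstream was described from lists of other genes. Of 24 tested genes for JAK, STAT and SOCS proteins, 2 were higher (beside 2.19% of all probe sets) and 1 lower (4.2%) with Dactolisib within array sets, with a median difference of 0.03 beside 0.00 over all probe sets. Socs3, the feedback inhibitor of IL-6 family receptors, was 10.98 and 11.56 with Dactolisib against 10.54, 11.14, 10.32 and 9.99 with DMSO, a within-set difference of 0.49 ± 0.10 (limma adjusted p = 0.0295). Pim1, a STAT-induced kinase, differed by 0.35 (0.0420) and Ptpn6, the phosphatase SHP-1 that restrains cytokine receptors, by -0.50 (0.0176). Ptpn6 was 11.02 and 10.68 with Dactolisib, below the DMSO arrays of the same sets at 11.51, 11.57 and 11.16.

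Of 20 tested genes for IL-1 receptor and TNF receptor signalling, 2 were higher (beside 2.19% of all probe sets) and 0 lower (4.2%), with a median of 0.05. They were Irak2, a kinase of the MyD88 complex (0.50 ± 0.09, limma adjusted p = 0.0258), and Traf2, an adaptor of TNF receptors (0.44 ± 0.08, 0.0221). Traf2 was 8.09 and 8.29 with Dactolisib and 7.66, 7.86, 7.65 and 7.85 with DMSO, without overlap. Of 11 tested genes for maturation and release of IL-1 beta and IL-18, among them Casp1 and Nlrp3, 0 passed (limma), and 1 was higher and 1 lower at an unadjusted p under 0.05, beside 23.5% of all probe sets. Without the array sets, 0 genes of these lists passed in limma, and 2 of the IL-1 and TNF receptor list were higher at an unadjusted p under 0.05, beside 6.24% of all probe sets.

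Some markers of cell types were called too. Within array sets 3 of 15 tested monocyte and macrophage markers were lower with Dactolisib (Cx3cr1, C1qa and C1qc). So were 2 of 22 epithelial, 2 of 21 granulocyte (Cxcr2 and Mmp9) and 1 of 7 dendritic cell markers (Itgax). Fibroblast markers gave 1 higher and 2 lower of 15. Beside these counts, 4.2% of all probe sets were called lower and 2.19% higher. The summed linear signal of monocyte and macrophage markers was 10108 to 10389 in set A and 11614 to 12177 in set B, with Mertk and Cd163 at background throughout. Their part in the interleukin results was not tested.

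For Dasatinib against DMSO, 0 of 56 genes passed in limma without the array sets (0.0% of all probe sets) and 0 within them (also 0.0%). At an unadjusted p under 0.05, 1 gene was lower without the sets (0.366% of all probe sets), and within them 1 was higher and 2 lower (4.88%). The methods' unpaired test without the sets gave 0 adjusted and 1 unadjusted call. The gene was Il21r, the receptor of IL-21, at 5.08 and 5.15 with Dasatinib against 5.53, 5.40, 5.26 and 5.53 with DMSO. It did not overlap, but its signal was near background, and the within-set difference was -0.35 ± 0.13 (limma adjusted p = 0.850). Non-overlap counted 2 genes above DMSO, Il1rn and Il15ra, beside 1.9% of all probe sets, and Il21r alone below, beside 2.4%.

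The 2 Dasatinib arrays disagreed. For Il15, the signal was 9.03 on Dasatinib 1 and 9.47 on Dasatinib 2, against 8.05 and 9.50 on the DMSO array of the same set, so that the differences were 0.98 and -0.03. Osm gave 0.78 and 0.01, Il18bp 0.86 and -0.03, Il23a 0.71 and -0.01, and Il1rn 0.54 and 0.04. In each case the difference in set C was the larger. Without Dasatinib 2, or without DMSO 3, 5 genes passed within array sets, Il15, Osm, Il1bos, Il18bp and Lif, all higher, beside 1.45% of all probe sets called higher and 1.1% called lower. That result compares Dasatinib 1 with DMSO 5 only, with the spread taken from DMSO 2 and DMSO 4 alone. Marker lists differed between these 2 arrays. The summed linear signal on Dasatinib 1 was lower for fibroblast (3005, against 4532 on DMSO 5), granulocyte (66670, against 76341) and epithelial markers (54156, against 57784). It was higher for dendritic cell (850, against 498) and monocyte and macrophage markers (11591, against 9217). The dendritic cell sum was dominated by Itgax, at 9.36 against 8.23. The median log2 difference was -0.02 over the dendritic cell markers and 0.09 over the monocyte and macrophage markers. Single markers within a list went both ways. Among granulocyte markers, Ngp moved by -2.24 and Mmp8 by -1.60, but Camp by 0.38 and Cxcr2 by 0.32, with a list median of -0.14. Of the dendritic cell markers, Itgax moved by 1.13, but Flt3 and Zbtb46 by -0.16 each. Their part was not tested.

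**Figure D3:**
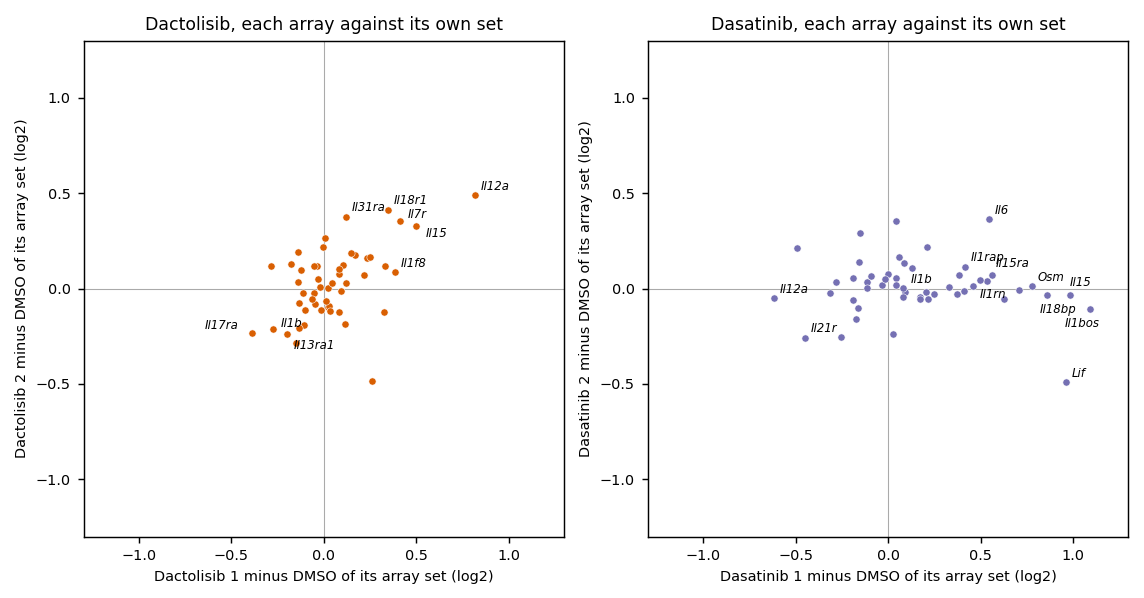
Difference in log2 signal of the second drug array from the DMSO of its array set (y axis) against that of the first (x axis), for the 51 genes above background on at least 1 array. Dactolisib points for Il12a, Il15, Il18r1 and Il7r lie at 0.33 or more on both axes, whereas Dasatinib points reach 1.09 along the first array and lie between -0.49 and 0.36 on the second.

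Over the 56 genes, Dactolisib was higher in both of its sets for 21 and lower in both for 14, beside 32.1% and 33.5% of all probe sets. Dasatinib was higher in both for 18 and lower in both for 9, beside 22.3% and 24.9%. Il6, the ligand of Il6ra, was among the 18, at 7.08 and 4.36 with Dasatinib against 6.53 and 3.99 on the DMSO arrays of the same sets, with a within-set difference of 0.45 ± 0.13 (limma adjusted p = 0.850). Only the set C values of Il6 were above background in this pair of sets.

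The inhibitors were also compared directly at the same dose and time over all 56 genes, with p-values adjusted over all probe sets. Dactolisib against Dasatinib gave 0 calls in limma without the array sets (0.0% of all probe sets) and 0 within them (0.0%). At an unadjusted p under 0.05 there were 2 higher and 0 lower genes without the sets (3.64%) and 7 higher and 5 lower within them (14.3%), and the methods' unpaired test gave 0 unadjusted calls. Il7r was 7.12 and 7.09 with Dactolisib against 6.40 and 6.68 with Dasatinib, without overlap, and differed by 0.48 ± 0.11 within sets (limma adjusted p = 0.142). Il12a was 7.15 and 7.61 against 4.76 and 7.07 with Dasatinib, a within-set difference of 0.86 ± 0.22 (0.158). A difference between the inhibitors was therefore not shown for any of the 56 genes in either fit, and the calls for Dactolisib against DMSO are not shown to be particular to it. The exception was the fit within sets without Dasatinib 2, in which 5 genes passed, Il12a higher (beside 1.36% of all probe sets) and Il23a, Osm, Il1bos and Il18bp lower (2.36%).

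Several genes differed widely between array sets, which is given as a description because the sets were found from the same arrays. Lif, a cytokine made by epithelial and stromal cells among others, was 9.43 on Dasatinib 1 and 8.47 on DMSO 5, the arrays of set C, and between 4.97 and 5.90 on the other 6. Il6st was 7.59 and 7.74 on the same 2 arrays and between 4.89 and 5.57 elsewhere. By the probe sets with the highest mean, both genes were thus high only where the epithelial sum was 54156 to 57784. Fibroblast markers were highest there too. Their summed linear signal was 3005 to 4532 in set C, 2336 to 2670 in set A and 1061 to 1209 in set B.

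Il6 and Il33, which were picked out after their values were seen, followed in part. Il6 averaged 6.80 in set C, 5.07 in set A and 4.07 in set B. Il33, a nuclear alarmin of epithelial and stromal cells, averaged 7.56 in set C, 7.02 in set A and 4.66 in set B. That is the order of the epithelial and of the fibroblast sums. In set B, with the lowest epithelial and fibroblast sums, Il33 and Il6 were at or below background on all 3 arrays.

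Other genes ran the opposite way or separately. Il23a averaged 10.16 in set B against 8.37 in set A and 8.76 in set C, and Il12a averaged 7.27 in set B, 6.61 in set A and 5.06 in set C. Il16 averaged 8.63 in set C, against 10.11 in set A and 9.83 in set B. Set means differed by more than 1 on the log2 scale for 16 of the 75 genes. The part of epithelial or fibroblast RNA in these levels was not tested.

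**Figure D4:**
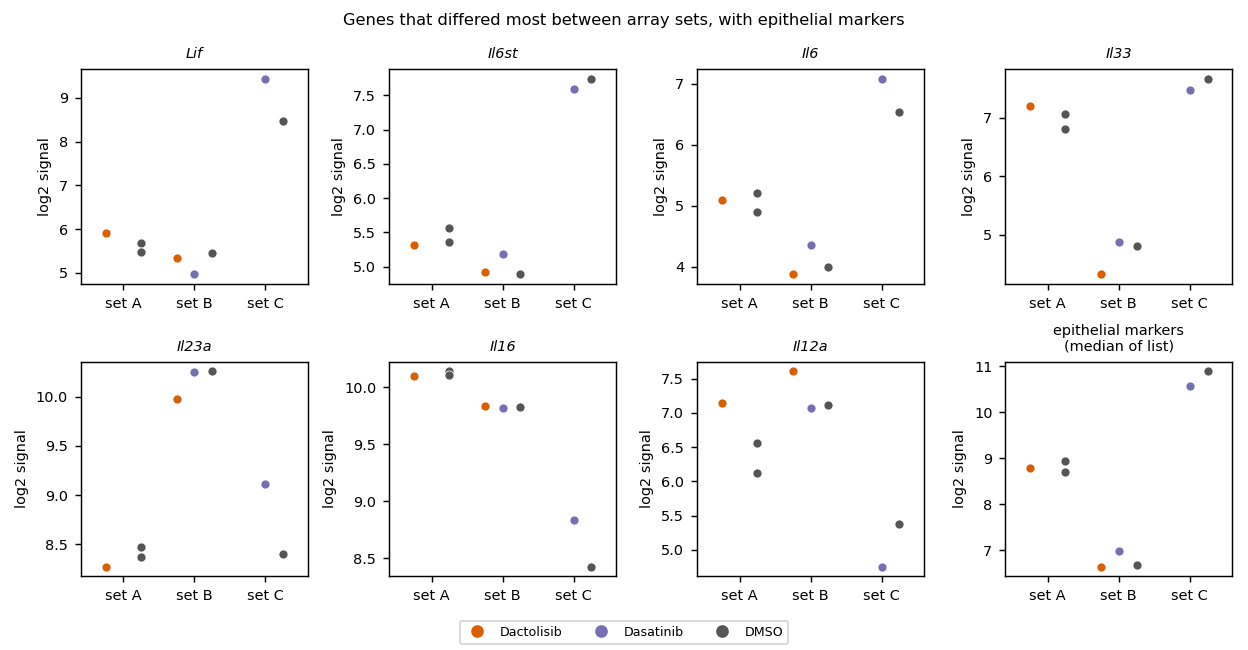
Log2 signal (y axis, own scale per panel) of 7 genes on each array and the median of the epithelial marker list, 1 point per array, by array set (x axis) and treatment. Lif, Il6st, Il6 and the epithelial markers were highest on both arrays of set C, and Il23a on the 3 arrays of set B.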

How the data were processed

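The values are log2 signals of 45101 probe sets on 8 Affymetrix mouse arrays, in a single table from the authors, and were used as deposited. How they were summarised is uncertain: MAS5 per the submitters' processing notes, the oligo package per the study's methods. The labels name Trizol for the RNA and the methods RNeasy. Titles gave the groups, because both Dasatinib samples carry Dactolisib as their treatment label. Array medians were 4.82 to 4.87, so no scaling was added, and 0 columns were left unused. A platform table gave 34958 probe sets 1 gene, 932 several and 9211 none, controls included. For each of the 75 genes (117 probe sets) the probe set with the highest mean was used. Some genes are not reported here.

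Probe sets in the upper 66.7% by mean signal (30025) were tested with limma 3.58.1 in R 4.3.3, with no covariate as in the methods (6 arrays for a drug against DMSO, all 8 for drug against drug), and again with the array set as a block, with 2 residual degrees of freedom left in each drug's comparison with DMSO. Sets came from average linkage on 1 minus the Pearson correlation. The fits were tested on simulated data. Members, lists and sets were chosen with earlier results of these data known. Named were genes expressed on all arrays, genes that passed or had the 5 lowest p-values among those expressed, the 5 with the largest range between set means, and up to 4 passing genes of a pathway list. Alternatives were quantile normalization, 32 added before log2, other filters, a trended and robust prior, the methods' t-test, the mean of probe sets, other samples and each array left out. Leaving out set C, and 1 fit of all arrays within sets, were added after the data were seen. Symbols were read against RefSeq (GRCm38.p6), Python 3.11.15 and pandas 2.3.3.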

Additional observations from a re-analysis of the deposited data

Results flagged for a closer look

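Of 42 genes checked among the 4 DMSO arrays, 3 had 1 array far from the others by Dixon's test at its 95% critical value, which chance alone gives in about 5% of groups. Il1a was 11.27 on DMSO 3 (ratio 0.854) and Il23a 10.26 on DMSO 3 (ratio 0.946), and the Dactolisib and Dasatinib arrays of the same set B were high too. Lif was 8.47 on DMSO 5 (ratio 0.923), and Dasatinib 1 of the same set C was 9.43.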

How the results depend on the processing

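Across the alternatives, 494 values kept their direction and side of the threshold, 21 lost and 14 gained significance and 17 changed sign. A value that passed in neither fit counts as kept, and some alternatives repeat a fit. For Dactolisib against DMSO within sets, leaving out DMSO 5 or set C gave the main fit again. Among the called genes there, Il15 and Il7r stayed the same in 8 alternatives and lost significance in 6. The counts were 9 and 5 for Il12a and 10 and 4 for Il18r1. For Dactolisib against DMSO the array set block gave a count of 4, against 0 without it. Within array sets that count was 7 (4 higher, 3 lower) with 32 added before log2 and 9 (7 higher, 2 lower) with a trended and robust prior. With only the 15013 probe sets of highest mean signal it was 6 (4 higher, 2 lower). Without the filter it was 1 (Il12b), beside 423 higher and 810 lower of all 45037 probe sets. All 8 arrays in one fit gave 1, beside 371 higher and 716 lower of 30025. With Dactolisib 1, Dactolisib 2 or DMSO 3 left out, no probe set passed. The count was 4 without DMSO 2 (beside 1009 higher and 1847 lower) and 3 without DMSO 4 (508 and 1039). For Dasatinib against DMSO and for Dactolisib against Dasatinib within array sets it was 0 to 5 with an array left out, and 0 in every such fit without the sets. The replicate block for Dactolisib against Dasatinib left it at 0, with a correlation of 0.559 between same-numbered arrays in only 2 pairs. The causes were not tested.

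Signs changed only in values that had not passed in the main fit. Il17ra under Dactolisib without the sets ran between -0.38 and 0.07 with an array left out (0.045 without Dactolisib 2, 0.067 without DMSO 2, 0.039 without DMSO 4). Under Dasatinib without the sets, Il1rap was -0.033 with the mean of probe sets, -0.25 without Dasatinib 2 and -0.059 without DMSO 5 (range to 0.58), and Osm was -0.049 and -0.040 without the same 2 arrays (range to 0.52). Within sets, Il15 was -0.031 (range to 0.98) and Il18bp -0.033 (range to 0.86) without Dasatinib 1, DMSO 5 or set C, and Il1rap -0.051 with the mean of probe sets. For Dactolisib against Dasatinib, Il15 was -0.051 without Dactolisib 2 and, within sets, -0.56 without Dasatinib 2 (range to 0.41).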
